A study of Arabidopsis thaliana with 8 samples.

Results

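Protoplasts made from wild-type (WT) Arabidopsis thaliana roots were compared with WT roots. The members are the 2 arrays titled as WT protoplasts and the 2 titled as WT roots, 4 of the 8 arrays of the series, chosen by title and not by any measured value. The other 4 arrays, 2 of protoplasts and 2 of roots, are labelled hira, a name shared with the histone chaperone HIRA, and the labels name no allele. These hira arrays add to the estimate of spread and are used beside single genes. Seeds of all groups were kept at 4 °C for 4 days and roots were grown on upright MS plates, MS being a salt medium for plants. The labels enter digestion by enzymes as the treatment of every sample, roots included, so it cannot be told from them whether roots were digested too. They give no plant age, no digestion time and no statement that replicates came from separate plants. The p-values set a group difference against the spread of arrays within all 4 groups, hira included, and that spread may be technical.

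A protoplast is a plant cell whose wall has been digested away by cellulases and pectinases, held in a medium of high osmotic strength so that it does not burst. A freed root cell loses its contacts with neighbouring cells, and protoplasts are used as a starting point for new walls, new divisions and regeneration.

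Each value is a log2 expression value from an Affymetrix Arabidopsis array, centred so that the median of a probe set over the 8 arrays is 0. A difference between arrays can be read from such values and a level cannot, so the usual check of the tissue label by marker levels was not possible. All differences below are WT protoplasts minus WT roots on the log2 scale. SE is the standard error of the limma fit. A difference counted as called when its p, adjusted after Benjamini and Hochberg over all 22746 probe sets tested, was under 0.05. Precision is limited by the number of arrays. An exact permutation test of a single value cannot go below p = 0.333 with 2 arrays against 2. The values come from bulk RNA, so fewer cells of a type and less RNA per cell cannot be told apart.

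The correlation of replicate arrays over all probe sets was r = 0.738 for WT protoplasts and 0.574 for WT roots, where probe sets are not independent replicates. Control transcripts moved with the groups. For GAPDH, the 5′ probe set minus the 3′ probe set was 0.48 and 0.75 in the WT protoplast arrays, against -2.24 and -2.19 in the WT root arrays. For actin this gap was 1.75 and 1.30 in WT protoplasts, against -2.14 and -1.48 in WT roots. The 6 control pairs are a first and a second pair for each of GAPDH, actin and ubiquitin, so they are not independent. None of their gaps overlapped between the groups, and all were higher in WT protoplasts. Among the values of single probe sets, 76.9% of all tested did not overlap either. The 18 hybridisation spikes, RNAs added during labelling and hybridisation, had a median difference of -0.91, and the 24 poly(A) spikes one of -0.90. The part of these control differences in the gene results was not tested.

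**Figure D1:**
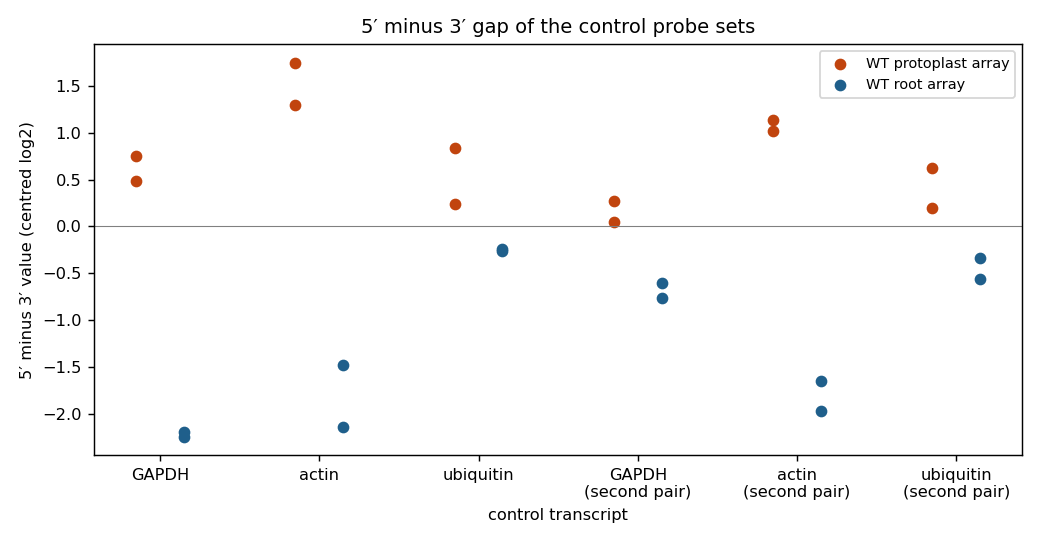
Gap between the 5′ and the 3′ probe set of 6 control pairs (centred log2, vertical axis) in each WT protoplast array and each WT root array. The WT protoplast arrays lie at or above 0.05 and the WT root arrays at or below -0.24 for every pair.

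Expression differed between WT protoplasts and WT roots over much of the array, with calls for 5817 of 22746 probe sets (25.6%). Of these, 2659 (11.7% of all) were higher and 3158 (13.9%) lower in WT protoplasts. At least 2-fold changes made up 4652 calls (20.5%), with 2035 higher (8.95%) and 2617 lower (11.5%). Large changes were common in both directions. At 8-fold or more there were 846 calls (3.72%), of which 366 probe sets were higher (1.61%) and 480 lower (2.11%), and at 64-fold or more 44 were higher and 27 lower. Calls numbered 3747 without WT protoplast replicate 1 and 3877 when an array of hira protoplasts was left out, and 2331 in a fit of the 4 WT arrays alone.

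**Figure D2:**
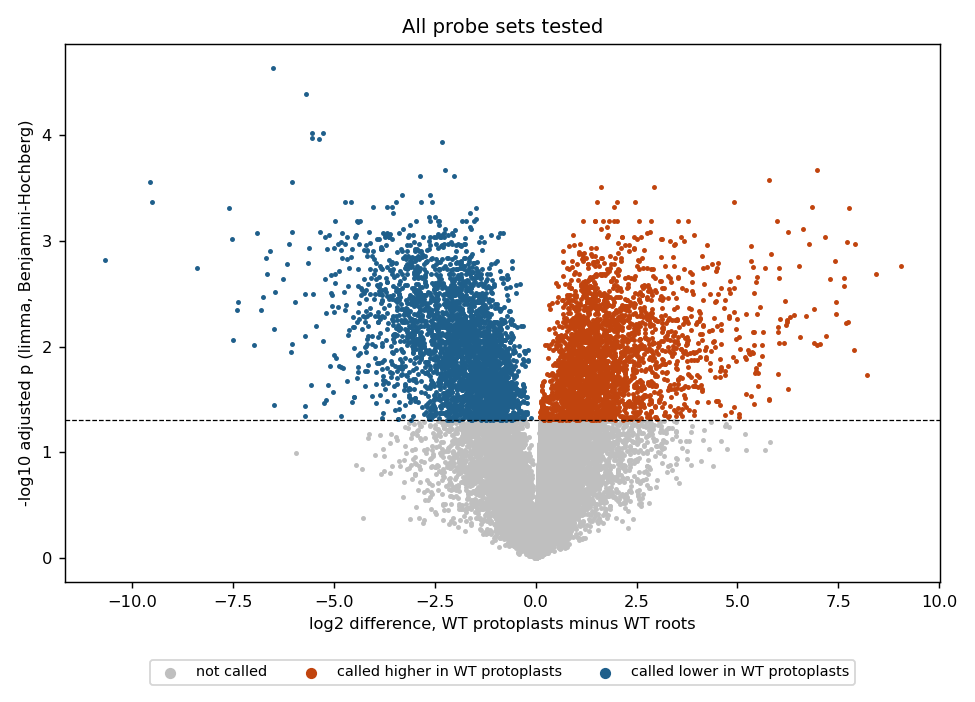
Log2 difference of WT protoplasts minus WT roots (horizontal axis) against -log10 of the limma adjusted p (vertical axis) for the 22746 probe sets, each a point. The dashed line marks an adjusted p of 0.05. The 2659 probe sets called higher and the 3158 called lower extend to 9.05 and -10.69.

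Calls were spread over genes with and without a symbol. Genes with a symbol gave 221 higher (14%) and 224 lower (14.2%) calls among 1580 probe sets. Of the 11933 probe sets whose gene is known by its locus code only, 1168 were called higher (9.79%) and 1502 lower (12.6%). A further 8730 probe sets have no gene listed in the annotation used, and 1215 of them were called higher (13.9%) and 1353 lower (15.5%). The largest rise of all, 9.05 (SE 0.56), belongs to the probe set 245035_at with no gene listed, which stood at 5.90 and 5.75 in WT protoplasts, against -3.56 and -2.88 in WT roots.

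The 989 probe sets of pseudogenes, as the RefSeq gene table names them, held fewer calls than the background in the fit used here. Of these, 21 were called higher (2.12%) and 7 lower (0.708%). Their median difference was 0.06, yet 952 of 989 differences were positive and the arrays of 913 did not overlap between the groups. Over all probe sets the arrays did not overlap for 17503 (76.9%), so a lack of overlap is common even among small differences. The count of pseudogene rises was 54 without WT protoplast replicate 1, 6 without WT root replicate 1 or either hira protoplast array, and 9 without either hira root array. It was 0 with the 4 WT arrays alone and 157 with a trended and robust variance, so the low count depends on how the variance was modelled.

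The share of calls differed by gene length among protein-coding genes of the nucleus, which were split into 4 length classes of nearly equal size. In the class of shortest genes, 78 to 1439 bases in the RefSeq gene table, 6.78% were called higher and 8.26% lower. In the class of longest genes, 3056 to 26499 bases, 10.6% were called higher and 19.0% lower. The share called lower increased over all 4 classes, while the share called higher was largest, at 13.9%, in the third. The control gaps given above differ between the same arrays, and their part in this was not tested.

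The largest rises among genes known by locus code could be sorted by whether the response in hira differed. For 11 of the 16 named genes no difference between hira and WT was called. Of these, 10 were also called higher in hira protoplasts than in hira roots, and AT2G41190 had a hira difference of 2.38 with no call (adjusted p = 0.0746). AT3G02480 had 4.04 and 3.54 in WT protoplasts, against -4.17 and -3.54 in WT roots, a rise of 7.65 (SE 0.55, adjusted p = 0.00225). AT2G17850 had 3.82 and 5.81 in WT protoplasts, against -2.36 and -3.41 in WT roots, a rise of 7.70 (SE 0.87, adjusted p = 0.00596). AT4G39675 had 4.34 and 4.98 in WT protoplasts, against -2.09 and -3.49 in WT roots, a rise of 7.45 (SE 0.69, adjusted p = 0.00381). In all 3 both protoplast arrays lay far above both root arrays.

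AT3G15670 had 4.84 and 3.89 in WT protoplasts, while both WT root arrays stood at -2.81, a rise of 7.17 (SE 0.31). AT5G52050, listed in RefSeq with the synonym DTX50, a detoxification efflux carrier, had 4.84 and 2.81 in WT protoplasts, against -3.32 and -2.81 in WT roots, a rise of 6.89 (SE 0.68). AT2G47950 had 2.99 and 3.01 in WT protoplasts, against -2.99 and -3.08 in WT roots, a rise of 6.03 (SE 0.39). The groups were far apart for these genes too, and the replicates of AT2G47950 nearly met. The other genes of this kind, AT3G19920, AT1G66760, AT1G78070, AT2G41190 and AT5G13030, rose by 5.68 to 6.39. The calls of AT2G17850, AT5G52050, AT3G19920 and AT2G41190 were lost with the 4 WT arrays alone.

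The hira response was called different from the WT response in 5 of the 16 genes, AT5G54370, AT1G65570, AT1G50060, AT1G52070 and AT1G52060. AT5G54370, the largest rise of a gene with a locus code, had 1.97 and 1.58 in WT protoplasts, against -6.16 and -7.17 in WT roots, a rise of 8.44 (SE 0.58, adjusted p = 0.00205). AT1G65570 had 2.51 and 2.61 in WT protoplasts, against -5.46 and -4.96 in WT roots, a rise of 7.77 (SE 0.23, adjusted p = 0.00049). AT1G50060 had 2.20 and 1.43 in WT protoplasts, against -5.92 in both WT root arrays, a rise of 7.73 (SE 0.87, adjusted p = 0.00588). In all 3 the WT root arrays lay far below the WT protoplast arrays.

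AT5G54370 averaged -0.63 in hira protoplasts and 0.02 in hira roots, both far above the WT roots. For AT1G50060 the averages were -1.32 in hira protoplasts and 0.23 in hira roots. AT1G65570 averaged 0.44 in hira protoplasts and -0.53 in hira roots, and its hira difference of 0.96 was itself called higher (adjusted p = 0.0429). The response in hira minus the response in WT was -9.09 for AT5G54370 (adjusted p = 0.0186), -6.81 for AT1G65570 (0.00531), -9.29 for AT1G50060 (0.0332), -7.58 for AT1G52070 (0.0331) and -8.76 for AT1G52060 (0.0113). Of all probe sets 4.87% passed this test. The genes were chosen for large differences in WT, so a smaller difference in hira follows in part from the choice. In AT1G52060 the hira difference was itself called in the other direction, at -2.72 (adjusted p = 0.0149).

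**Figure D3:**
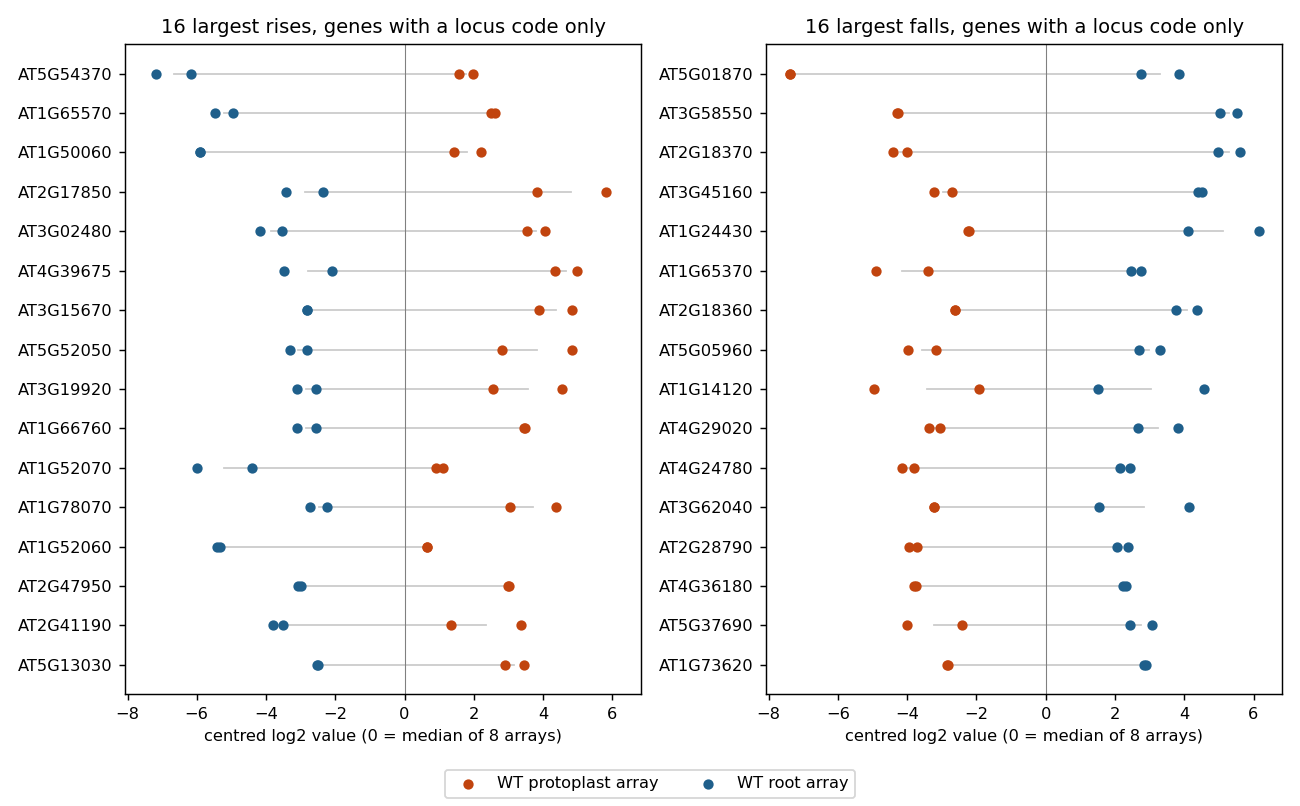
Centred log2 values (horizontal axis) of each WT protoplast array and each WT root array for the 16 largest rises (left panel) and the 16 largest falls (right panel) among called genes known by locus code, with a grey line between the group means. The rises span 5.68 to 8.44 and the falls -5.70 to -10.69. Only genes without overlap between the groups could be chosen.

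The largest falls were mostly called in hira as well. AT3G58550 had -4.27 and -4.31 in WT protoplasts, against 5.04 and 5.53 in WT roots, a difference of -9.57 (SE 0.21, adjusted p = 0.000278). AT2G18370 had -4.41 and -4.02 in WT protoplasts, against 4.96 and 5.61 in WT roots, a difference of -9.50 (SE 0.26, adjusted p = 0.000431). AT3G45160 had -2.70 and -3.23 in WT protoplasts, against 4.50 and 4.39 in WT roots, a difference of -7.41 (SE 0.74, adjusted p = 0.00447). Replicates of these genes lay close together beside the distance between the groups.

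AT1G24430 had -2.22 and -2.26 in WT protoplasts, against 4.09 and 6.16 in WT roots, a difference of -7.37 (SE 0.68). AT5G05960 had -3.18 and -3.99 in WT protoplasts, against 3.30 and 2.68 in WT roots, a difference of -6.58 (SE 0.35). AT4G24780 had -3.80 and -4.14 in WT protoplasts, against 2.42 and 2.14 in WT roots, a difference of -6.26 (SE 0.46). The 16 named falls ranged from -5.70 for AT1G73620 to -10.69 for AT5G01870, and 14 of the 16 were also called lower in hira protoplasts than in hira roots.

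AT5G01870 showed the largest difference of any probe set, and its values differed from those in hira. Both WT protoplast arrays stood at -7.39, against 2.76 and 3.84 in the WT root arrays, a difference of -10.69 (SE 0.62, adjusted p = 0.00153). The averages were -0.88 in hira protoplasts and 1.33 in hira roots, a difference of -2.20 without a call (adjusted p = 0.0655). The hira response minus the WT response was 8.48 (adjusted p = 0.0228). AT4G36180, AT2G28790 and AT1G73620 also differed from hira, with responses in hira minus WT of 2.19, 1.43 and -0.66, each of them called lower in both genotypes.

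**Figure D4:**
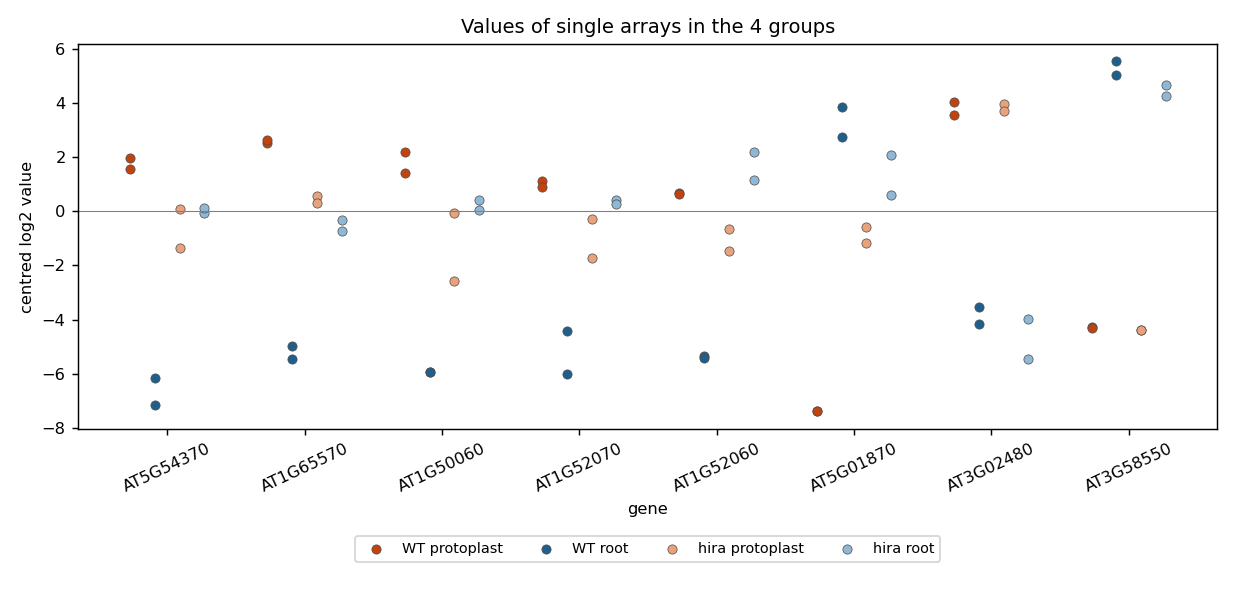
Centred log2 values of single arrays (vertical axis) in WT protoplasts, WT roots, hira protoplasts and hira roots for 5 rises and the fall AT5G01870, in which hira differed from WT, and for AT3G02480 and AT3G58550, in which no such difference was called. For the 5 rises the WT root arrays, at -4.42 and below, are the lowest, and for AT5G01870 the WT protoplast arrays, at -7.39, are the lowest.

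Some of the largest falls end in values that are nearly equal between the WT protoplast arrays. Among the 480 probe sets called lower by at least 8-fold, 65 (13.5%) had protoplast arrays within 0.02 of each other, and among the 366 called higher by at least 8-fold, 21 (5.74%) had such root arrays. Over all probe sets the shares were 23.0% for the protoplast arrays and 15.5% for the root arrays. Whether nearly equal values lie at the floor of the signal cannot be read from centred values, and if they do, the difference is a lower bound and its SE no measure of precision. This touches AT5G01870, AT2G18360, AT3G62040 and AT1G73620 among the named falls, and AT1G50060, AT3G15670 and AT5G13030 among the named rises. It also touches the falls TBL36, UGT80B1, KINESIN-12B, AUR1, PRL, CYP71B37, EXPA20, IQD16, IQD28 and NET1A and the rise AT1G54870. The AT3G62040 call was lost without WT protoplast replicate 1.

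AT1G14120 was the least certain of the named falls. It had -4.95 and -1.94 in WT protoplasts, against 4.57 and 1.52 in WT roots, a difference of -6.49 (SE 1.47, adjusted p = 0.0355). Its replicates lay about 3 log2 units apart in each group, and the call was lost without WT protoplast replicate 1, WT root replicate 1 or any single hira array, with a replicate block, with one weight per group and with the WT arrays alone.

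The largest rises of genes with a symbol were those of LEA4-5, JRG21, IAA30, CP1 and SIS. LEA4-5 is described with the water-deficit genes and IAA30 with the auxin genes. JRG21, named as a jasmonate-regulated gene, had 3.85 and 3.26 in WT protoplasts, against -3.26 and -3.34 in WT roots, a rise of 6.85 (SE 0.19, adjusted p = 0.000473), called under all 15 alternatives. CP1, a cysteine protease gene, had 3.48 and 2.56 in WT protoplasts, against -1.60 and -3.26 in WT roots, a rise of 5.45 (SE 0.94, adjusted p = 0.0172), lost without either WT protoplast array or WT root replicate 2. SIS, named as a salt-induced serine-rich gene, had 3.62 and 2.04 in WT protoplasts, against -3.16 and -1.94 in WT roots, a rise of 5.38 (SE 0.66, adjusted p = 0.0073). The calls of CP1 and SIS were lost in a fit of the 4 WT arrays alone. The choice of all these genes required arrays that do not overlap between the groups.

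The small heat shock protein gene ATHSP22.0 had 3.49 and 1.65 in WT protoplasts, against -2.40 and -1.65 in WT roots, a rise of 4.6 (SE 0.76, adjusted p = 0.0155). PPDK, pyruvate orthophosphate dikinase, which interconverts pyruvate and phosphoenolpyruvate, had 3.14 and 1.82 in WT protoplasts, against -2.46 and -1.01 in WT roots, a rise of 4.22 (SE 0.65, adjusted p = 0.0126). IVD, isovaleryl-CoA dehydrogenase, an enzyme of leucine breakdown in mitochondria, had 2.31 and 1.26 in WT protoplasts, against -1.98 and -1.52 in WT roots, a rise of 3.54 (SE 0.49, adjusted p = 0.00953). Protoplast replicates of these genes differed by more than 1 log2 unit, which is less than their distance from the roots. The IVD rise was not called in hira, where the difference was 1.61 (adjusted p = 0.0774). The hira response minus the WT response of IVD was not called either (limma adjusted p = 0.162). The ATHSP22.0 call was lost without WT root replicate 1. With the 4 WT arrays alone the calls of ATHSP22.0, PPDK and IVD were lost. Of the 14 largest rises of genes with a symbol, 3 were called under all 15 alternatives.

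IRX15-L, a gene of xylan synthesis in secondary walls, had 1.25 and 0.70 in WT protoplasts, against -2.49 and -3.29 in WT roots, a rise of 3.86 (SE 0.47, adjusted p = 0.00701). Its averages were -0.45 in hira protoplasts and 0.68 in hira roots, and the hira response minus the WT response was -5.0 (adjusted p = 0.0332). As in the 5 locus-code genes above, the WT root arrays were the lowest. AtLEA4-1, a late embryogenesis abundant (LEA) protein gene, had 3.71 and 3.34 in WT protoplasts, against -0.02 and 0.01 in WT roots, a rise of 3.53 (SE 0.12), and averaged -0.01 in hira protoplasts and 0.00 in hira roots. AT1G54870 had 1.65 and 1.58 in WT protoplasts, against -0.01 and 0.00 in WT roots, a rise of 1.62 (SE 0.04), with 0.00 in hira protoplasts and 0.00 in hira roots. These last 2 genes stood above the other 3 groups in WT protoplasts, and the hira minus WT differences were -3.53 (adjusted p = 0.00554) and -1.61 (adjusted p = 0.00213).

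Among the 14 largest falls of genes with a symbol, 13 were also called lower in hira. TBL36, of a family that acetylates wall polysaccharides, had -3.92 and -3.94 in WT protoplasts, against 1.68 and 1.53 in WT roots, a difference of -5.54 (SE 0.08, adjusted p = 0.000106). 3xHMG-box2, a protein that binds mitotic chromosomes, had -2.50 and -2.71 in WT protoplasts, against 2.46 and 3.0 in WT roots, a difference of -5.34 (SE 0.21, adjusted p = 0.00082). HVA22C, of a membrane protein family first known from an abscisic acid induced gene of barley, had -2.84 and -3.35 in WT protoplasts, against 1.68 and 2.54 in WT roots, a difference of -5.21 (SE 0.38, adjusted p = 0.00229). All 3 were called lower in hira protoplasts as well.

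BAT1, here the acyltransferase AT4G31910 named for its link to brassinosteroids, had -3.18 and -5.0 in WT protoplasts, against 1.29 and 0.55 in WT roots, a difference of -5.01 (SE 0.76), and its call was lost without WT root replicate 1. PPR596, a pentatricopeptide repeat protein of an RNA-binding family, had -4.33 and -4.03 in WT protoplasts, against 0.57 and 0.72 in WT roots, a difference of -4.82 (SE 0.25). ULT1, a trithorax-group factor that limits meristem size, had -1.75 and -2.98 in WT protoplasts, against 2.05 and 2.28 in WT roots, a difference of -4.53 (SE 0.48). The choice of these genes required that the groups do not overlap.

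Wall families differed in direction. Expansins loosen walls during growth, and of 19 measured members 5 fell (26.3%) and 0 rose, with a median difference of -0.37 against 0.03 over all probe sets. EXPA15 had -2.66 and -2.49 in WT protoplasts, against 1.74 and 1.5 in WT roots, a difference of -4.19 (SE 0.59). EXPB3 had -2.12 and -1.90 in WT protoplasts, against 2.21 and 0.89 in WT roots, a difference of -3.56 (SE 0.62). The other members that passed were EXLA2, EXPA20 and EXLA1, from -1.82 to -2.59. The count of falls depends on single arrays: it was 0 without WT protoplast replicate 1, 1 without WT protoplast replicate 2 and 2 when an array of hira protoplasts was left out. The EXPA15 call was among those lost without WT protoplast replicate 1. EXPA7 and EXPA18, expansins of root hairs, had differences of 1.86 and 1.25 with no call, and replicates in both groups lay far apart.

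Of 22 members of the TBL family 6 fell (27.3%) and 3 rose (13.6%), against 13.9% and 11.7% over all probe sets. TBL36 is given above, TBL35 had a difference of -2.05, TBL39 of -1.84, and TBL45, TBL32 and TBL30 of -1.07 to -1.27. TBL34 rose by 1.59 (SE 0.14) and TBL41 by 2.27 (SE 0.58). The count of falls was between 4 and 6 when single arrays were left out, and that of rises 1 or 2. Among 36 beta-glucosidases and glycosyl hydrolases of family 9, the group that holds the plant endoglucanases, 5 fell and 2 rose. GH9B8 had -2.32 and -2.36 in WT protoplasts, against 2.59 and 1.51 in WT roots, a difference of -4.39 (SE 0.47), and GH9B13 had a difference of -3.54 (SE 0.41). The shares, 13.9% lower and 5.56% higher, are near or under those of all probe sets. The count of falls was 3 without either WT protoplast array or either hira protoplast array, and that of rises 0 without WT protoplast replicate 1 or WT root replicate 2. Of 10 xyloglucan endotransglucosylases, which cut and rejoin wall xyloglucan, XTH18 alone was called, at -3.53. The single calls among 4 pectin enzymes and 2 extensins and proline-rich wall proteins were rises, PMEPCRF at 2.20 (SE 0.44) and AT5G01280 at 0.91 (SE 0.17).

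Of 37 subtilases and serine carboxypeptidases, which are secreted or vacuolar proteases, 6 fell (16.2%) and 2 rose (5.41%), shares near and under those of all probe sets. SCPL45 had -1.43 and -2.39 in WT protoplasts, against 1.43 and 1.65 in WT roots, a difference of -3.45 (SE 0.38), while scpl48 had 1.5 and 1.28 in WT protoplasts, against -1.91 and -1.05 in WT roots, a rise of 2.87 (SE 0.29). Of 17 chitinases, thaumatins, defensins and germins 4 fell (23.5%) and 1 rose (5.88%), against 13.9% and 11.7% over all probe sets. The rise was CHI at 1.85 (SE 0.39), lost without either WT protoplast array, WT root replicate 2 or either hira protoplast array. The falls among the subtilases and carboxypeptidases numbered between 4 and 8 without any single array. Of 10 RALF-like signal peptide genes 2 fell (20%), RALFL34 and RALFL24, against 13.9% lower over all probe sets. RALFL24 had -1.74 and -1.64 in WT protoplasts, against 2.09 and 1.64 in WT roots, a difference of -3.56 (SE 0.16), and the other 8 RALF-like genes had differences between -1.48 and 0.17 with no call.

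**Figure D5:**
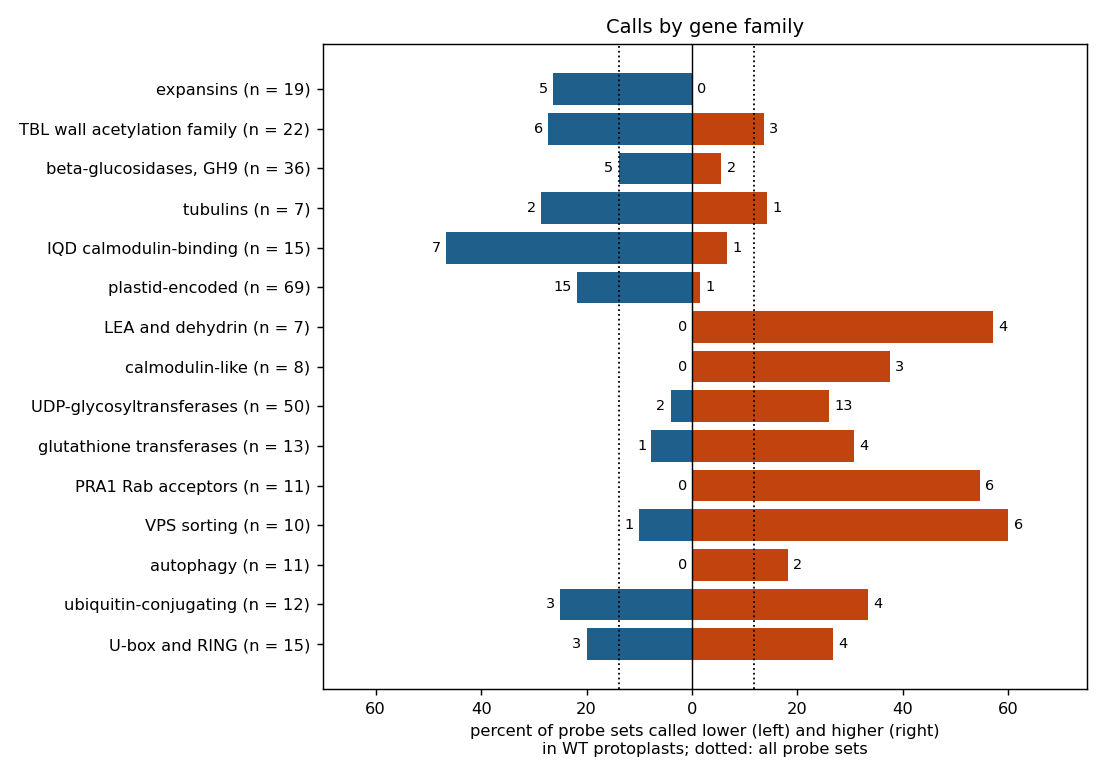
Share of each family's probe sets called lower (bars to the left) and higher (bars to the right) in WT protoplasts, in percent, with the counts at the bar ends and the number measured beside each name. Dotted lines give the shares over all probe sets, 13.9% lower and 11.7% higher. IQD genes reach 46.7% lower, while LEA and dehydrin, PRA1 and VPS genes exceed 50% higher.

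Genes of the cytoskeleton moved in both directions. Of 7 tubulins 2 fell (28.6%) and 1 rose (14.3%), against 13.9% and 11.7% over all probe sets. TUB7, a beta-tubulin, had -1.40 and -1.55 in WT protoplasts, against 0.50 and 1.07 in WT roots, a difference of -2.26 (SE 0.31). TUA1, an alpha-tubulin best known from pollen, had 1.74 and 1.72 in WT protoplasts, against -2.69 and -0.71 in WT roots, a rise of 3.43 (SE 0.65), lost without either WT protoplast array or either hira protoplast array. Of 10 NET genes, which encode actin-binding proteins, 2 fell (20%) and 2 rose (20%). NET1A had -1.69 and -1.70 in WT protoplasts, against 2.1 and 2.13 in WT roots, a difference of -3.81 (SE 0.25), while NET2D rose by 1.69 (SE 0.21). The NET rises numbered 1 without either WT root array or either hira protoplast array, and the tubulin falls 1 without WT protoplast replicate 1.

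IQD proteins bind calmodulin, and many sit on microtubules. Of 15 measured IQD genes 7 fell (46.7%) and 1 rose, with a median of -1.05. IQD26 had -1.46 and -1.22 in WT protoplasts, against 2.19 and 1.22 in WT roots, a difference of -3.04 (SE 0.35). IQD16 had -0.34 and -0.33 in WT protoplasts, against 2.27 and 3.03 in WT roots, a difference of -2.99 (SE 0.33). IQD28 had -1.60 in both WT protoplast arrays, against 0.73 and 0.27 in WT roots, a difference of -2.1 (SE 0.34). The exception was IQD23, which rose by 1.18 (SE 0.24), with its call lost without WT protoplast replicate 1 or WT root replicate 1. The count of falls was 4 and 3 without WT protoplast replicates 1 and 2, and 5 or 6 without any other single array.

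Genes of the cell cycle and DNA replication were among the falls. Of 19 loci in the list for cell cycle and DNA replication only 3 were measured. All 3, AUR1, AUR2 and PRL, fell, also without any single array, against 13.9% lower over all probe sets. AUR2, an Aurora kinase, had -1.58 and -1.63 in WT protoplasts, against 1.21 and 1.75 in WT roots, a difference of -3.09 (SE 0.20). KINESIN-12B, a motor of the division plate, had -0.81 in both WT protoplast arrays, against 0.88 and 1.09 in WT roots, a difference of -1.80 (SE 0.13). It was the single call among 2 measured kinesins. HTB2, a histone H2B gene, had -2.38 and -1.57 in WT protoplasts, against 0.62 and 1.12 in WT roots, a difference of -2.85 (SE 0.33). HTB2 was the single call among 6 core histone genes, and the other H2B genes HTB1, HTB4 and HTB11 had differences of 0.30 to 0.39 with no call. The centromeric histone gene HTR12 had a difference of -0.19 with no call.

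Several water-deficit genes rose. Of 7 LEA and dehydrin genes, whose proteins are thought to guard membranes and proteins during drying, 4 rose and 0 fell, with a median of 1.92. LEA4-5 had 5.23 and 4.19 in WT protoplasts, against -2.97 and -2.47 in WT roots, a rise of 7.43 (SE 0.43). LEA18 had 1.74 and 2.68 in WT protoplasts, against -1.07 and -0.77 in WT roots, a rise of 3.13 (SE 0.37). AT2G46140 had 0.69 and 0.86 in WT protoplasts, against -0.92 and -1.38 in WT roots, a rise of 1.92 (SE 0.20). The count was 4 or 5 without any single array. In the abscisic acid and water deficit list, which shares LEA4-5 with that family, 3 of 4 measured members rose, LEA4-5, COR47 and LTI30, a dehydrin gene at 2.55, while COR15A stood at 0.03 in both WT protoplast arrays and within 0.01 of 0 in the WT roots.

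Calcium sensors and signalling factors held several rises, from few genes measured. Over all probe sets 11.7% were higher and 13.9% lower. Calmodulin-like genes had 37.5% higher and 0 lower, and auxin response genes 18.2% higher and 0 lower. WRKY factors had 42.9% higher and 14.3% lower, the latter near the share over all probe sets. Of 8 calmodulin-like genes 3 rose and 0 fell. AT1G76640, with the RefSeq synonym CML39, had 1.86 and 0.96 in WT protoplasts, against -1.87 and -2.08 in WT roots, a rise of 3.38 (SE 0.37). CML38, its neighbour on chromosome 1, had 1.41 and 4.40 in WT protoplasts, against -1.41 and -1.82 in WT roots, a rise of 4.52 (SE 0.99, adjusted p = 0.0328). The protoplast arrays of CML38 differ by 3 log2 units, and its call was lost without either WT root array or any single hira array. Of 7 WRKY transcription factors 3 rose and 1 fell, with WRKY6 at 1.68 (SE 0.17) and WRKY20 at -0.76 (SE 0.13), and 1 rise was left without either WT protoplast array or either hira protoplast array. The WRKY20 call was lost without either WT protoplast array or WT root replicate 1. All 11 auxin response genes of the Aux/IAA, SAUR and GH3 families had positive differences, of which IAA30 and IAA18 passed. The smallest, 0.02 for GH3.9, is within the shift of 0.0261 made by another centring and is not positive after it or after quantile normalization, and the median over all probe sets is itself 0.03. IAA30 had 4.05 and 2.91 in WT protoplasts, against -3.34 and -1.81 in WT roots, a rise of 6.05 (SE 0.66), lost with the 4 WT arrays alone. IAA18 had 1.63 and 1.16 in WT protoplasts, against -1.36 and -0.65 in WT roots, a rise of 2.40 (SE 0.57), and its call was lost without any single array other than those of hira roots.

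Enzymes that add sugars or glutathione to small molecules rose more often than they fell. Of 50 UDP-glycosyltransferases 13 rose (26%) and 2 fell (4.00%), with a median of 0.20. UGT71B1 had 2.04 and 0.92 in WT protoplasts, against -2.27 and -2.35 in WT roots, a rise of 3.80 (SE 0.37). UGT76B1 had 1.99 and 1.23 in WT protoplasts, against -1.21 and -1.46 in WT roots, a rise of 2.95 (SE 0.32). UGT74F1, known to glucosylate salicylic acid, had 2.1 and 1.13 in WT protoplasts, against -1.36 and -1.25 in WT roots, a rise of 2.92 (SE 0.39). UGT73D1 rose by 3.49 (SE 0.59), and UGT71B6, known to glucosylate abscisic acid, by 2.34 (SE 0.59). The falls were UGT80B1, a sterol glucosyltransferase, at -1.47 (SE 0.19) and UGT88A1 at -0.64 (SE 0.07). The count of rises was 4 without WT root replicate 2, 5 without either hira protoplast array, 7 without WT protoplast replicate 1, 8 without either hira root array and 9 or 10 without the others.

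Of 13 glutathione transferases 4 rose (30.8%) and 1 fell (7.69%), against 11.7% and 13.9% over all probe sets. GSTU28 had 0.27 and -0.10 in WT protoplasts, against -1.30 and -1.71 in WT roots, a rise of 1.59 (SE 0.31), lost without any single WT array. GSTU16 had 0.61 and 0.82 in WT protoplasts, against -1.90 and -0.57 in WT roots, a rise of 1.95 (SE 0.49). GSTU22 had -0.25 and -0.38 in WT protoplasts, against 0.89 and 0.90 in WT roots, a difference of -1.21 (SE 0.31). The count of rises was 1 without either WT protoplast array and 2 without either WT root array. The GSTU16 call held without WT root replicate 2 and was lost without any other single array, and the GSTU22 call was lost without any single WT array or hira root array. Of 24 cytochromes P450 1 rose (4.17%) and 2 fell (8.33%), both shares under those of all probe sets. CYP78A9 rose by 3.47 (SE 0.83), and CYP71B37 had a difference of -4.11 (SE 0.42). The CYP78A9 call was lost without any single WT array or hira root array. The P450 falls numbered 4 without either WT root array.

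PRA1 proteins are receptors of Rab GTPases on the endomembrane system, and of 11 measured members 6 rose (54.5%) and 0 fell, with a median of 0.98. PRA8 had 0.63 and 0.47 in WT protoplasts, against -1.66 and -1.99 in WT roots, a rise of 2.38 (SE 0.31). PRA7 had 0.38 and 0.56 in WT protoplasts, against -0.81 and -0.86 in WT roots, a rise of 1.30 (SE 0.08). PRA1.H had 0.53 and 0.68 in WT protoplasts, against -0.53 and -0.71 in WT roots, a rise of 1.23 (SE 0.11). The others that passed were PRA1.A1, PRA1.E and PRA1.B1, from 0.98 to 1.66, and the count was between 5 and 7 without any single array.

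Of 9 SEC genes, named after secretion mutants of yeast, 0 were called. VPS genes encode parts of the machinery that sorts membrane proteins into the vacuole. Of 10 measured members 6 rose (60%) and 1 fell (10%), against 11.7% and 13.9% over all probe sets. VPS60.1 had 0.74 and 0.77 in WT protoplasts, against -0.78 and -0.30 in WT roots, a rise of 1.30 (SE 0.19). VPS2.1 had 0.81 and 0.85 in WT protoplasts, against -0.05 and -0.25 in WT roots, a rise of 0.98 (SE 0.09). VPS2.2, a close relative of VPS2.1, had -2.83 and -3.71 in WT protoplasts, against 0.92 and 1.36 in WT roots, a difference of -4.41 (SE 0.35). The 2 genes thus moved in opposite directions. The count of rises was 3 without WT protoplast replicate 1, WT root replicate 1 or either hira protoplast array, 4 without WT protoplast replicate 2 or WT root replicate 2, and 5 without either hira root array.

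Autophagy genes, which serve the delivery of cell contents to the vacuole for breakdown, had positive differences in all 11 measured members, with a median of 1.13, but only 2 passed (18.2%). ATG8H had 1.93 and 1.45 in WT protoplasts, against -2.33 and -1.34 in WT roots, a rise of 3.53 (SE 0.46). APG8H had 0.65 and 0.59 in WT protoplasts, against -0.60 and -0.19 in WT roots, a rise of 1.01 (SE 0.18). ATG8B, with 0.43 and -0.18 in WT protoplasts, against -0.35 and 0.18 in WT roots, overlapped between the groups. The count was 1 without WT protoplast replicate 1 or either hira protoplast array, and 3 without WT root replicate 2. It was 6 when only probe sets with an SD of at least 0.2 were tested, and 0 with the 4 WT arrays alone.

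Of 12 ubiquitin-conjugating enzymes 4 rose (33.3%) and 3 fell (25%), against 11.7% and 13.9% over all probe sets. UBC19 had 1.82 and 1.30 in WT protoplasts, against -0.62 and -0.36 in WT roots, a rise of 2.05 (SE 0.28). UBC20, which like UBC19 is of the type that serves the anaphase-promoting complex, had -1.81 and -1.97 in WT protoplasts, against 0.73 and 1.41 in WT roots, a difference of -2.96 (SE 0.25). These close relatives thus differed in direction. Of 15 U-box and RING ubiquitin ligases 4 rose (26.7%) and 3 fell (20%). PUB22, known from drought and immune signalling, had 1.53 and 2.16 in WT protoplasts, against -1.33 and -1.49 in WT roots, a rise of 3.26 (SE 0.41). PUB19, known from drought signalling, rose by 3.39 (SE 0.49). Without WT protoplast replicates 1 and 2 the rises numbered 2 each among the conjugating enzymes, and 3 and 2 among the ligases. The falls among the ligases numbered 1 without WT protoplast replicate 1, WT root replicate 1 or either hira protoplast array.

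A fit of the 4 WT arrays alone has fewer samples to estimate the spread and leaves out the spread of the hira arrays. It lowered most of these family counts. The rises numbered 0 among ubiquitin-conjugating enzymes and auxin response genes. They numbered 1 each among VPS genes, glutathione transferases, ubiquitin ligases, calmodulin-like genes and WRKY factors. There were 3 among UDP-glycosyltransferases, 3 among LEA and dehydrin genes and 4 among PRA1 genes. The falls numbered 1 each in the TBL family and among subtilases and carboxypeptidases, 2 among expansins, 3 among beta-glucosidases and family 9 hydrolases, 5 among IQD genes and 12 among plastid-encoded genes.

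Plastid-encoded genes held more falls than rises. Of 69 plastid probe sets 15 fell (21.7%) and 1 rose (1.45%), with a median of -0.67. ndhC, of the plastid NADH dehydrogenase-like complex, had -2.20 and -2.18 in WT protoplasts, against 1.11 and 0.74 in WT roots, a difference of -3.11 (SE 0.27). rpoC1, of the plastid RNA polymerase, had -2.42 and -3.15 in WT protoplasts, against 0.35 and 0.06 in WT roots, a difference of -2.99 (SE 0.55), lost without any single WT array or hira protoplast array. rps4, of the plastid ribosome, had -1.64 and -1.90 in WT protoplasts, against 0.81 and 0.91 in WT roots, a difference of -2.63 (SE 0.26). The rise was psbE, of photosystem II, at 1.29 (SE 0.27), lost without any single array other than those of hira roots. The count of falls was 7 without either WT protoplast array, 8 without either WT root array or either hira protoplast array, and 25 without either hira root array. Of 23 mitochondrial probe sets 2 rose and 1 fell, with a median of 0.00, while 0 rose without WT root replicate 1 and 5 fell without either hira root array. The labelling kit primes on poly(A) tails, which organelle transcripts mostly lack, and what this does to these values was not tested.

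Root cell type markers were thinly covered. FACT, the single call among 3 endodermis and suberin genes, had -3.69 and -3.04 in WT protoplasts, against 4.22 and 4.24 in WT roots. The others of that list had differences of 0.00 and 0.02 with no call. The measured root hair genes, EXPA7 and EXPA18, had positive differences of 1.86 and 1.25 with no call. LHW, a regulator of vascular tissue, had -2.02 and -0.84 in WT protoplasts, against 0.51 and 0.30 in WT roots, a difference of -1.84 (SE 0.41), lost without either WT root array or any single hira array. BBM, a factor of the root stem cell niche, had -0.78 and -0.31 in WT protoplasts, against 1.57 and 2.02 in WT roots, a difference of -2.34 (SE 0.38), lost without WT protoplast replicate 1 or WT root replicate 2. The green-tissue genes RCA and PRK had differences of 0.12 and 0.03 with no call, and no phloem or seed storage gene of the lists had a single-gene probe set.

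Neighbouring genes shared a call about as often as the shares of single genes give. Among 5674 pairs of adjacent protein-coding genes with 1 probe set each, 81 (1.43%) were both higher, 118 (2.08%) both lower and 182 (3.21%) went in opposite directions. By gene, 10.9% of these were higher and 13.8% lower, and the products of these shares are 1.19% for both higher, 1.90% for both lower and 3.02% for opposite. Nothing particular to neighbours is read from these counts, and the runs are given as a description. AT1G52050, AT1G52060 and AT1G52070, adjacent on chromosome 1, all rose. AT1G52050 had 0.98 and 0.80 in WT protoplasts, against -3.86 and -5.57 in WT roots, a rise of 5.61 (SE 0.78). AT1G52060 had 0.66 and 0.64 in WT protoplasts, against -5.34 and -5.42 in WT roots, a rise of 6.04 (SE 0.43). AT1G52070 had 1.11 and 0.91 in WT protoplasts, against -4.42 and -6.00 in WT roots, a rise of 6.22 (SE 0.70). Their values over the 4 arrays were alike, and neighbouring copies of a gene can share hybridisation, which was not tested.

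On chromosome 2, AT2G18360 had -2.62 in both WT protoplast arrays, against 3.76 and 4.38 in WT roots, a difference of -6.69 (SE 0.38), beside AT2G18370, given above. On chromosome 4, AT4G39670 had 3.13 and 2.30 in WT protoplasts, against -1.05 and -0.99 in WT roots, a rise of 3.74 (SE 0.31), beside AT4G39675. The longest runs held 4 genes. In the higher run, PEL1, AT4G27652, AT4G27654 and AT4G27657 rose by 0.83 to 2.49. In the lower run, TSO1, a DNA-binding regulator of meristem cell division, had a difference of -4.26, NET1A one of -3.81, AT3G22800 one of -1.48 and AT3G22810 one of -0.79.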

How the data were processed

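RNA from 8 samples was measured on Affymetrix Arabidopsis arrays. The deposited table holds values on a log scale, made with GCRMA per the submitters' processing notes, with no version given, and centred so that each probe set has a median of 0 over the arrays. The log base is not stated, and the values are read as log2 values of the authors. Samples were grouped by title, and RNA was taken with a QIAGEN kit per the labels.

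A mean per group over the 8 arrays was estimated in R 4.3.3 by limma 3.58.1 (lmFit and eBayes, 4 residual degrees of freedom, two-sided), with Benjamini-Hochberg adjustment over 22746 probe sets and a threshold of 0.05, leaving out 64 control probe sets. The hira minus WT response was a contrast of the same fit. Genes came from the platform's probe annotation and a RefSeq gene table: 13513 probe sets had 1 gene, 503 several and 8730 none listed, and 13436 matched the RefSeq table. Of 206 list loci 26 were measured, so most lists are thin. Simulated data for 22746 probe sets had normal noise and changes in WT protoplasts only. The WT contrast recovered 8.96% of 67 changes of log2 size 1, 35.8% of 67 of size 2 and 74.2% of 66 of size 4. Probe sets of smallest spread were not among those changed, and 5 unchanged ones were called. Far fewer probe sets were changed than the 25.6% called in the data. The adjusted threshold is stricter in that case, so these shares do not give the recovery in the data.

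The named genes are, among called probe sets with 1 gene and WT groups that do not overlap, the 16 largest rises and falls of genes with a locus code only, the 14 of genes with a symbol, the 2 largest calls in each direction per family or list, the member of each described family nearest to 0, and the 3 smallest adjusted p in each direction. The comparison, lists and families were chosen with earlier results of these data known, families formed by symbol were added with the values at hand, and further family members were named after their values were seen. Planned shares of promoter motifs were not computed, since no promoter sequence was used here. Replicate numbers come from the titles: deviations of same-numbered arrays correlated at r = -0.0962, from 2 pairs, so the numbers were not taken to pair the samples.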

Additional observations from a re-analysis of the deposited data

Results flagged for a closer look

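Named genes are given here where the response to protoplast formation differed between hira and WT by limma's interaction contrast with Benjamini-Hochberg adjustment. Each value is the hira response minus the WT response on the log2 scale, with 2 arrays in each of the 4 groups. Many of the genes were chosen for a large WT difference, so a smaller hira response follows in part from the choice.

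Among genes called higher in WT protoplasts, the difference was -9.09 for AT5G54370, -6.81 for AT1G65570, -9.29 for AT1G50060, -7.58 for AT1G52070 and -8.76 for AT1G52060. It was -5.0 for IRX15-L, -3.53 for AtLEA4-1, -1.17 for AT1G79510, -0.75 for AT1G33780 and -1.61 for AT1G54870. PMEPCRF, a pectin methylesterase gene, had responses of -1.84 in hira and 2.20 in WT, a difference of -4.03 (adjusted p = 0.0447). AT5G61890 had the larger response in hira, 6.82 against 2.11 in WT, a difference of 4.71 (adjusted p = 0.0207). The glutathione transferase gene GSTU25 had -1.52 in hira and 0.82 in WT, a difference of -2.34 (adjusted p = 0.0164). For RPN12a, a proteasome subunit gene, the difference was -0.71.

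XTH21 had a response of -2.82 in hira and 0.06 in WT, a difference of -2.88 (adjusted p = 0.00198). Small differences were -0.37 for scpl47 and -0.27 for AT1G62500. XTH21 and AT1G62500 were named for having the smallest WT difference in their set. A larger hira response follows in part from that choice.

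Among genes called lower in WT protoplasts, AT5G01870 differed by 8.48. Hsp70-2, a chaperone gene, had -0.02 in hira and -4.10 in WT, a difference of 4.09 (adjusted p = 0.0294). The differences were 2.61 for PPR596, 2.29 for ndhC, 2.19 for AT4G36180, 1.43 for AT2G28790, 0.99 for RALFL34 and 0.65 for TBL36. Those of AT1G73620 and PDF2.5, with the larger fall in hira, were -0.66 and -0.61. A probe set of the mitochondrial gene nad1 had -0.04 in hira and -0.58 in WT, a difference of 0.54. Its WT call was lost when only probe sets with an SD of at least 0.2 were tested. Another nad1 probe set, named for the smallest WT difference among mitochondrial probe sets, did not show this fall. It had -0.005 in hira and 0.002 in WT, a difference of -0.007 with no call (adjusted p = 0.898). The WT protoplast arrays of nad1 and PDF2.5 and the WT root arrays of scpl47 and AT1G54870 lay within 0.02 of each other, and whether these values lie at the floor of the signal cannot be read.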

How the results depend on the processing

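Over 15 alternatives no named call turned its direction, and 60 of the 123 called named genes passed under all of them. The 5817 calls became 3717 with one weight per group (1672 higher, 2045 lower) and 2331 with the 4 WT arrays alone (942 higher, 1389 lower), of which 2031 changed at least 2-fold. Leaving out 1 array at a time gave 3747 to 5377 calls, 1692 to 2433 higher, 1884 to 2944 lower, and 2982 to 4306 of at least 2-fold. These fits have fewer samples, or weigh them differently. The relative weights per group were 0.432 for WT roots, 0.846 for WT protoplasts, 0.988 for hira roots and 2.77 for hira protoplasts. A lower weight stands for a wider spread within the group. Leaving out either array of a hira group gives the same WT result by construction. Calls numbered 6713 with a filter on the SD over arrays of at least 0.2, 6797 with a trended and robust variance, 5646 when centred on the least variable probe sets, and 5648 after quantile normalization. With the replicate block there were 4887 calls (2254 higher, 2633 lower), and 20 of the 123 named calls were lost. Signal over background cannot be read from centred values, so what it limits is unknown.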
